A study of Capra hircus with 4 samples.

Results

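MME and ANPEP encode a pair of zinc peptidases of the cell surface, and both genes stood in the deposited list of protein-coding genes that lie close to long non-coding RNAs (lncRNAs) of goat endometrium. The genes were found by symbol in the deposited table of predicted cis targets, and every lncRNA of the deposited list of all lncRNAs within 100 kb of either gene locus was taken with them. This gave 44 of 226416 lncRNAs, 26 near MME and 18 near ANPEP. The genes were chosen by the differential lncRNAs beside them, so the changes and p-values of those lncRNAs, and the pathway terms built on them, are given as a description with no test.

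The study took endometrium of multiparous Xinong Saanen dairy goats of 24 months of age after estrous synchronization and natural mating. Receptive endometrium was from gestational day 15 (2 libraries) and pre-receptive endometrium from gestational day 5 (2 libraries), made from RNA depleted of ribosomal RNA with a strand-specific protocol. There were 20 goats, 10 for each stage, and whether a library is 1 goat or a pool is not stated in the labels. The authors compared a set of libraries called T with a set called C, and the sources used here do not tie either letter to a stage, so every direction below is that of T against C. A value for each library was not used, so no spread between replicates stands beside any change, and the depth is unknown. The tables used here list protein-coding genes only as targets, so the tissue was not checked against markers.

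Neprilysin, the product of MME, is an ectoenzyme that cuts small signalling peptides such as bradykinin, natriuretic peptides, enkephalins and angiotensins, and in human endometrium it is widely used as a marker of the stroma. Aminopeptidase N, the product of ANPEP, removes neutral residues from the amino end of peptides and takes part in the stepwise trimming of angiotensins. Both therefore stand in the renin-angiotensin pathway, in which angiotensin peptides are made and broken down by a chain of peptidases. A lncRNA close to a gene can be, but need not be, tied to its transcription, and the deposited targets are predictions from position.

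The lncRNAs listed as differential went opposite ways at the 2 loci. Near MME, 4 lncRNAs were listed higher in T, all of them at 0 in C. Here and below, a lncRNA is called at 0 in a set where its deposited log2 change is infinite. Near ANPEP, 3 lncRNAs were listed lower in T, all above 0 in both sets. Of the 26 lncRNAs near MME 15.4% were listed as differential, and of the 18 near ANPEP 16.7%, against 0.295% of all listed lncRNAs, of which 0.177% were listed higher in T and 0.118% lower. As the loci were chosen for these lncRNAs, nothing is read from that difference.

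The MME locus (gene 102184949) spans 108.576 kb on chromosome 1, between positions 110416198 and 110524774 of the deposited tables. No genome build for these positions was found in the labels or headers. All 26 neighbouring lncRNAs were intergenic, and 0 of them overlapped the gene. At lower coordinates than the gene lay 17, and at higher coordinates 9. The strand of either gene was not used here, so before and past refer to coordinates alone. The nearest, TCONS_00024610, ended 9.73 kb before the start of the locus and was not listed as differential. On the other side the nearest was TCONS_00024618, 14.8 kb past the end, also not listed as differential. The nearest lncRNA on either side was thus not among the 4 differential ones. Of those 4, TCONS_00024609 lay just beyond TCONS_00024610, at 10.9 kb.

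**Figure D1:**
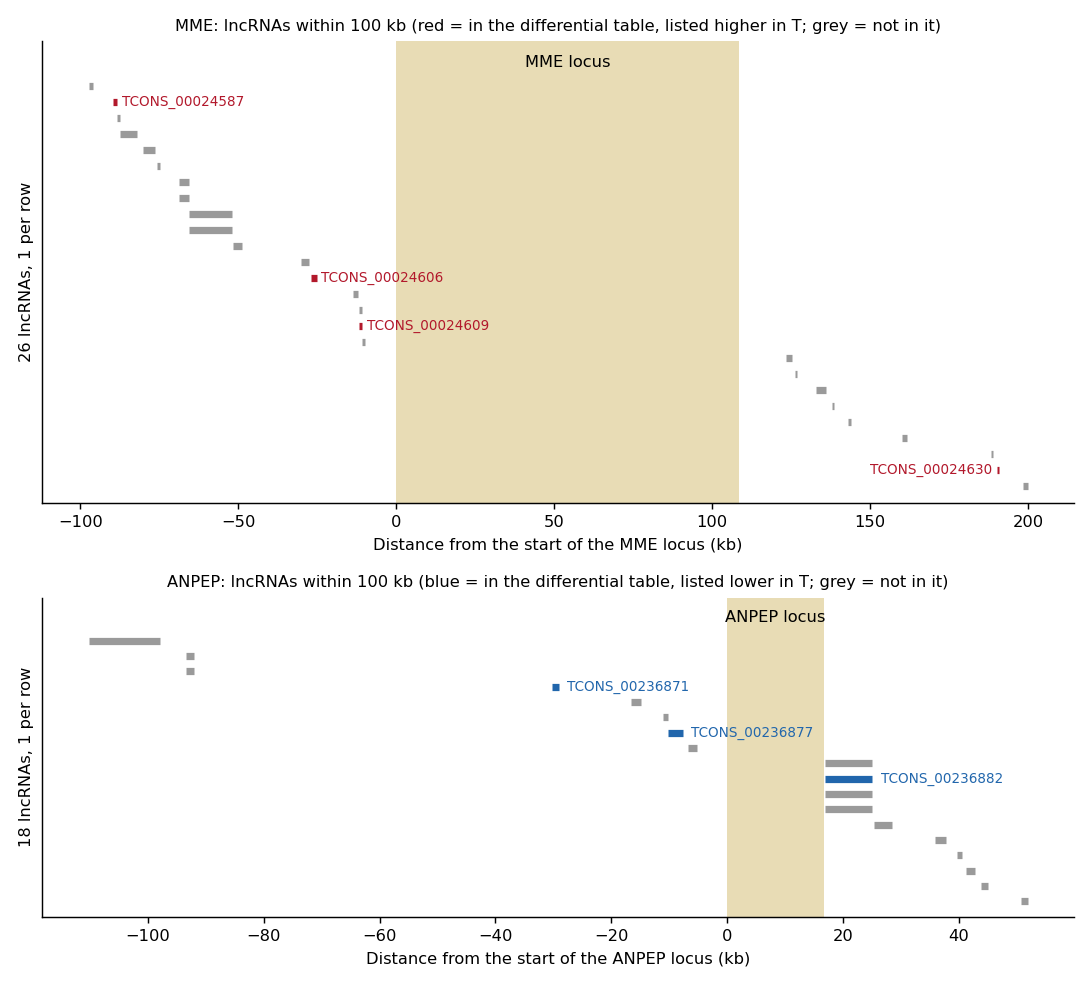
Each row is 1 lncRNA, drawn to scale by its distance in kb from the start of the gene locus (shaded), with the 26 lncRNAs near MME above and the 18 near ANPEP below. Coloured bars are the lncRNAs of the deposited differential table, 4 near MME (red) and 3 near ANPEP (blue), and they lie among the unlisted lncRNAs in grey.

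TCONS_00024609 (chromosome 1, 110404300 to 110405339) was the nearest of the 4 to MME, at 10.9 kb. The authors' deposited table gave it p = 0.00045 and q = 0.173, above 0 in T and at 0 in C. TCONS_00024606 (110389187 to 110391014) lay farther out on the same side, at 25.2 kb. In the authors' deposited table it too was above 0 in T and at 0 in C, with a smaller p of 5e-05 and a q of 0.0365.

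TCONS_00024587 (110326654 to 110327789) lay 88.4 kb from MME, again at lower coordinates. The authors' deposited table gave it the same p and the same q as TCONS_00024606, and it was also above 0 in T and at 0 in C. TCONS_00024630 (110606483 to 110606944) lay on the other side, 81.7 kb past the end of the locus. For it the authors' deposited table gave p = 0.0165 and q = 0.579, once more above 0 in T and at 0 in C. The p-values did not follow the gap to the gene, since the smallest belonged to lncRNAs at 25.2 and 88.4 kb.

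Because the deposited log2 change is infinite for all 4, no fold change can be given. By a q under 0.05, 2 of the 4 remained, and 0.0053% of all listed lncRNAs reached that q. The p of 5e-05 is the smallest in the authors' deposited table and is shared by 12 differential lncRNAs. Being at 0 in C, as read from an infinite change, was common among the differential lncRNAs, with 354 of 668. It held for 354 of the 401 listed higher in T. Of the 267 listed lower, 237 were above 0 in both sets, so each locus showed the usual pattern of its direction. Over the 354 at 0 in C the authors' deposited table had a median p of 0.00995 and a median q of 0.513. TCONS_00024587, TCONS_00024606 and TCONS_00024609 had a smaller p than that median and TCONS_00024630 a larger one.

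A wider look added TCONS_00024560 (110230358 to 110230783), 185 kb from MME at lower coordinates. The authors' deposited table gave it an infinite log2 change, so again at 0 in C, with p = 0.0068 and q = 0.457. Within 200 kb of MME all 5 differential lncRNAs were therefore at 0 in C.

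Of the 4 lncRNAs within 100 kb, 3 were paired with MME in the cis target table. TCONS_00024630 was not, although its gap of 81.7 kb is smaller than the largest gap of any pair on that side (93793 bases). Over all 387 target genes, 47 of 493 combinations of a differential lncRNA and a target gene within 100 kb were likewise not paired, at 29 genes. The rule that left them out was not found in the labels or headers.

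MME itself had 4 transcripts in the deposited target lists. For TCONS_00024613 the direction was lower in T, at p = 0.235 according to the authors' deposited table. The other 3 were listed higher: TCONS_00024615 with p = 0.276, TCONS_00024614 with p = 0.771 and TCONS_00024617 with p = 1, taken from the authors' deposited table. Neither before nor after adjustment did any of the 4 pass 0.05 (adjusted p = 1 for each, Benjamini-Hochberg over the 816 target transcripts with a direction). Of those 816, only 267 had a p under 1, and 4.41% of the 816 had a p under 0.05. The listed directions of the MME transcripts were mixed, but at p-values of 0.235 or more no direction is read from them. A change of the MME message was not detected in the deposited lists. Their size of change was not used here, so an interval cannot be given.

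The ANPEP locus (gene 102185784) is shorter, 16.662 kb on chromosome 21, between positions 19131116 and 19147778. Of its 18 neighbouring lncRNAs 8 lay at lower and 10 at higher coordinates, and 0 overlapped the gene. Those near ANPEP had a median gap of 17.1 kb, and those near MME one of 51.8 kb. Within 10 kb there were 7 lncRNAs at ANPEP and 1 at MME. All but 1 of the 18 were intergenic. The exception, TCONS_00229561, was antisense to exons of PLIN1, which encodes the lipid droplet coat protein perilipin. It lay 97.9 kb away, was the lncRNA just inside the limit of 100 kb and was not listed as differential. Just outside lay TCONS_00236904 at 113 kb. For MME the lncRNA just inside was TCONS_00024584 at 96.0 kb and the one just outside TCONS_00024632 at 103 kb. None of these was listed as differential.

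TCONS_00236882 (chromosome 21, 19148009 to 19156192) was listed at a position that begins 231 bases past the end of the ANPEP locus. Its log2 change of T over C was -3.03 in the authors' deposited table, with p = 0.0081 and q = 0.490. The level in C was thus 8.19 times that in T. Of the 7 differential lncRNAs at both loci it lay closest to a gene, and of the 3 near ANPEP it had the largest change and the smallest p.

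TCONS_00236877 (19120977 to 19123434) lay 7.68 kb before the gene. Its log2 change was -1.87, a level in C 3.66 times that in T, at p = 0.0493 and q = 0.894 per the authors' deposited table. TCONS_00236871 (19100836 to 19102038) lay 29.1 kb before the gene. Here the authors' deposited table gave a log2 change of -1.94, a level in C 3.84 times that in T, at p = 0.0495 and the same q. Both p-values lie just under 0.0499, the largest p of any differential lncRNA in the authors' deposited table. A q of 0.05 was reached by 0 of the 3.

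**Figure D2:**
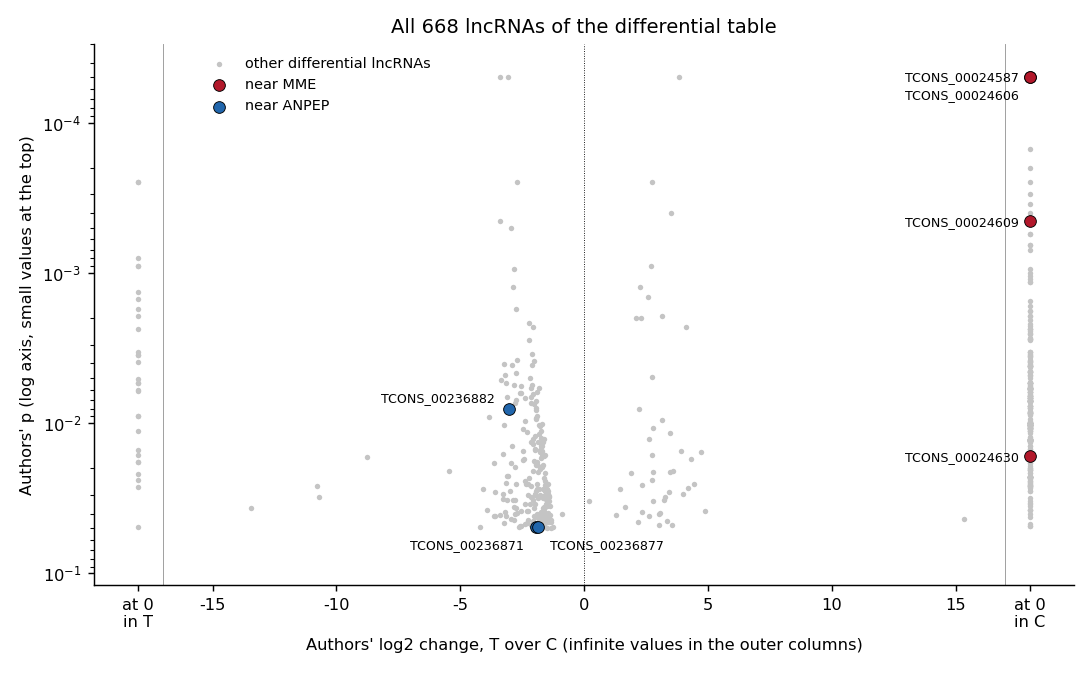
The authors' log2 change of T over C (horizontal, with infinite values in the outer columns) and the authors' p (vertical, log axis with small values at the top) of all 668 differential lncRNAs. The 4 lncRNAs near MME (red) lie in the column of those at 0 in C, 2 of them on the same point at 5e-05, and the 3 near ANPEP (blue) lie between -3.03 and -1.87.

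These 3 can be set against the other lower lncRNAs. The authors' deposited table holds 237 that were lower in T and above 0 in both sets, with a median log2 change of -1.94 and a median p of 0.0275. By the size of the change TCONS_00236871 and TCONS_00236877 stood at places 121 and 138 of the 237, close to the middle. TCONS_00236882 stood at place 34. The lncRNA beside the gene thus had a larger change than most of these, and the other ANPEP lncRNAs a change of about the median.

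The deposited list holds 4 lncRNAs at 19148009 to 19156192, each with its own identifier: TCONS_00236882, TCONS_00236883, TCONS_00236884 and TCONS_00229574. Of these, 1 was listed as differential. Likewise near MME, TCONS_00009963 has the same start and end as TCONS_00024609 and was not listed as differential. In all, 6 of the 26 lncRNAs near MME and 6 of the 18 near ANPEP shared both listed ends with another, which left 23 and 14 distinct positions. Whether a listed position marks the ends of each transcript or of a wider locus was not found in the labels or headers. Reads of transcripts that share a position may have been divided among them by the authors' estimation, so a change there is uncertain. This touches TCONS_00024609 and TCONS_00236882 among the differential ones.

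ANPEP had 1 transcript in the target lists, TCONS_00236880. In the authors' deposited table it was lower in T, at p = 5e-05 (adjusted p = 0.00583, Benjamini-Hochberg over 816 target transcripts). An adjusted p under 0.05 was reached by 0.98% of those transcripts, 8 in number, 7 of them lower in T. The ANPEP transcript and its 3 lncRNAs were thus listed in the same direction. Lower in T was the more common direction among target transcripts. It was the less common one among differential lncRNAs, with 267 lower and 401 higher. Of the 816 target transcripts 557 were listed lower in T and 259 higher, although only 267 of the 816 had a p under 1. The gap between ANPEP and TCONS_00236882 is 231 bases, and the tables used here do not show whether the lncRNA is a separate transcript or a continuation of the gene's own.

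**Figure D3:**
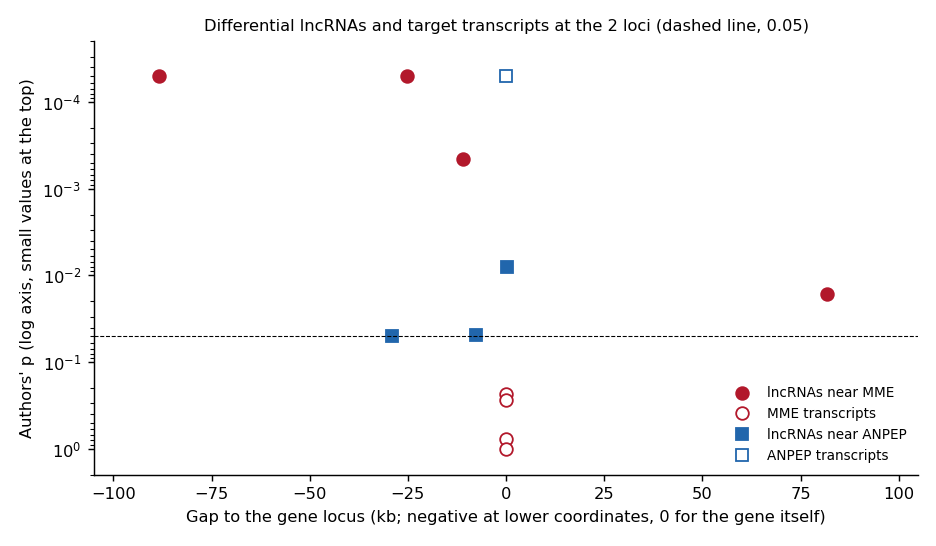
The authors' p (log axis with small values at the top) against the gap to the gene locus in kb, with filled symbols for the 7 differential lncRNAs and open symbols at 0 kb for the target transcripts of MME (circles) and ANPEP (squares). The 4 MME transcripts lie at 0.235 or more, below the dashed line at 0.05, while the ANPEP transcript lies at 5e-05.

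The same 3 lncRNAs were also paired with AP3S2 (gene 102191560, chromosome 21, 19186543 to 19229661), which encodes a small subunit of an adaptor complex of vesicle trafficking. The gaps to AP3S2 were 30.4 kb for TCONS_00236882, 63.1 kb for TCONS_00236877 and 84.5 kb for TCONS_00236871, all larger than those to ANPEP. For the AP3S2 transcripts the authors' deposited table gave TCONS_00236895 as lower in T with p = 0.0210 (Benjamini-Hochberg adjusted p = 0.636, not passed) and TCONS_00236896 as higher with p = 1. In RefSeq genes of assembly ARS1.2, used for names and order only, gene 102191560 bears a LOC symbol and follows ANPEP directly among protein-coding genes. MESP2, a transcription factor gene of early mesoderm, precedes ANPEP there, and PLCH1, a phospholipase C gene, and LOC102185610 flank MME.

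The deposited distance classes of 1, 10 and 100 kb did not follow the gaps at ANPEP. All 3 ANPEP pairs were in the class of 100 kb, including those with gaps of 231 bases and 7.68 kb. Over all target genes, 34 of 51 pairs with the lncRNA under 10 kb past the gene's higher coordinate were in that class, and 20 of 94 with the lncRNA under 10 kb before its lower coordinate. Gaps were therefore computed here from the positions.

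The numbers of lncRNAs around MME and ANPEP lay within the range of the other predicted targets. A target gene had a median of 20 lncRNAs within 100 kb, with a range of 5 to 54, against 26 at MME and 18 at ANPEP. At least 3 differential lncRNAs within 100 kb were found at 24 genes of the 387. At 18 of these, ANPEP among them, all were lower in T, at 3 all were higher (MME, CRIM1 and EMB), and at 3 they were mixed. MME was the 1 gene of the 24 at which every differential lncRNA was at 0 in C. This rests on the limit of 3, as genes with fewer differential lncRNAs also showed it. Examples are B4GALT7 and SLC13A1, each with 2 of 2 at 0 in C. At CRIM1 and EMB 0 of 4 and 0 of 3 were at 0 in C. A q under 0.05 was present at 2 of the 24 genes, MME and EMB. These genes share lncRNAs with their neighbours, as ANPEP does with AP3S2, so they are not independent counts.

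**Figure D4:**
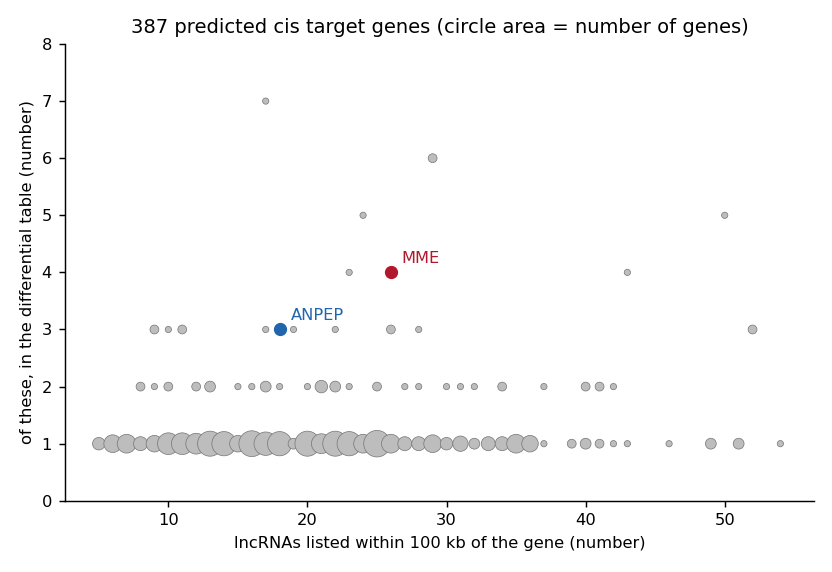
Each circle places predicted cis target genes by the number of lncRNAs listed within 100 kb (horizontal) and the number of these in the differential table (vertical), with circle area proportional to the number of genes. MME, with 26 and 4, and ANPEP, with 18 and 3, stand above the row of genes with 1.

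In the deposited scores of coding potential, lower values mean less coding potential. The CPC score had a median of -1.12 over the 26 lncRNAs near MME and -1.07 over the 18 near ANPEP, against -1.13 over all listed lncRNAs. The score of TCONS_00236882 was -1.03, and the highest in the whole list was -1. The differential lncRNAs near MME spanned 461 to 1827 bases of the genome and those near ANPEP 1202 to 8183 bases, against a median of 1265 bases over all 668 differential lncRNAs.

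The deposited enrichment tables join both genes through the renin-angiotensin system pathway, which held 6 lncRNAs, 3 of MME and 3 of ANPEP. Its p in the authors' deposited table was 1.1e-05. These lncRNAs were listed higher in T at one gene and lower in T at the other, and of the 5 gene transcripts at both loci 1 had a p under 0.05. Both genes also carry the hematopoietic cell lineage pathway, with 6 of its 7 lncRNAs from these loci and a p of 0.0107 in the authors' deposited table. Glutathione metabolism held ANPEP's 3 lncRNAs of 4 and had a p of 0.0199 in the authors' deposited table. Alzheimer's disease held MME's 3 of 6 and had a p of 0.291 in the authors' deposited table. After Benjamini-Hochberg adjustment over 146 KEGG pathways, the renin-angiotensin system was under 0.05 with an adjusted p of 0.00162. The other pathways listed for MME or ANPEP did not pass, with an adjusted p of 0.520 for hematopoietic cell lineage, 0.581 for glutathione metabolism and 0.978 for Alzheimer's disease. These p-values count lncRNAs, and the 3 at each locus share their target gene. The 6 lncRNAs of the renin-angiotensin system thus stand for 2 genes. As these genes were chosen by the same lncRNAs, nothing is read from the adjusted p.

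Among GO terms, plasma membrane enriched fraction (p = 2.3e-05), peptide metabolic process (p = 3.8e-05), neuron projection terminus (p = 0.000148) and beta-amyloid metabolic process (p = 0.000394) each held MME alone among target genes in the authors' deposited table. Synaptic vesicle (p = 0.000964 in the authors' deposited table) held in addition a lncRNA beside TRIM9. Metallopeptidase activity held 6 lncRNAs, ANPEP's 3 and those beside CNDP2, MYSM1 and RNPEPL1. Its p was 0.000109 in the authors' deposited table. MME stood there under metalloendopeptidase activity instead, with a p of 0.0246 in the authors' deposited table. After Benjamini-Hochberg adjustment over 744 GO terms, 6 of the 25 terms listed for the 2 genes were under 0.05, and 4 of these 6 rested on the MME lncRNAs alone. Nothing is read from these adjusted values, since the genes were chosen by the lncRNAs that the terms count.

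Some terms listed for ANPEP are not its own. The cis target table annotates ANPEP with 8 GO terms and 3 KEGG pathways, whereas the enrichment tables list it under 14 and 4. The extra ones are membrane coat, protein transporter activity, cytoplasmic vesicle membrane, intracellular protein transport, vesicle-mediated transport, Golgi apparatus and the lysosome pathway, which the cis target table gives to AP3S2. In the enrichment tables AP3S2 in turn is listed under the renin-angiotensin system, which the cis target table does not give to it. For MME, whose lncRNAs have no other target gene, the numbers were equal, at 13 and 3.

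**Figure D5:**
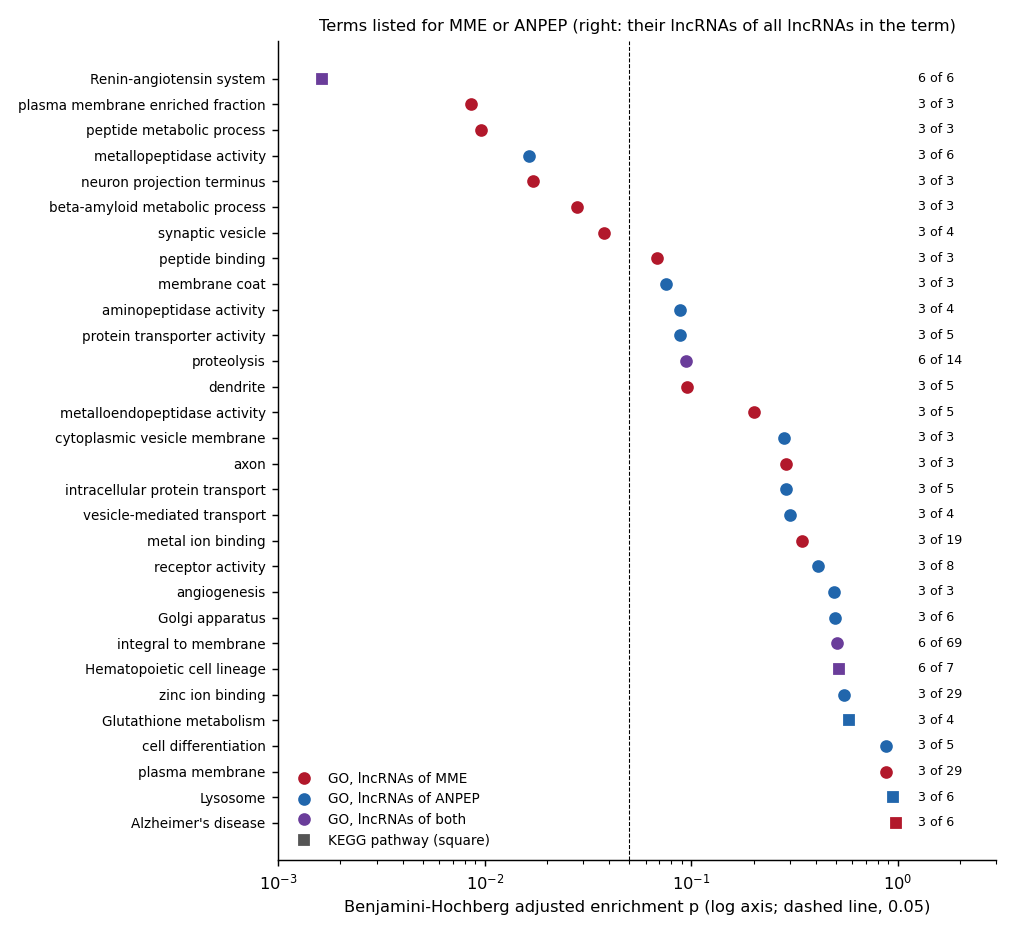
Benjamini-Hochberg adjusted p (log axis) of every GO term (circles) and KEGG pathway (squares) listed for MME or ANPEP, coloured by whose lncRNAs it holds, with the number of lncRNAs of the 2 genes of all lncRNAs in the term at the right. The renin-angiotensin system, with 6 of 6, lies farthest left, and 6 GO terms lie below 0.05.

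Of the other genes of the pathway, 0 were predicted targets. A list of 22 renin-angiotensin genes, which includes the angiotensin-converting enzymes, renin, angiotensinogen and the angiotensin receptors, had 2 members among the 387 target genes, MME and ANPEP themselves. A list of 25 peptidases of peptide hormones had 4, with ECE1 and RNPEPL1 besides. ECE1 encodes an enzyme that activates endothelin. The authors' deposited table gave its lncRNA TCONS_00200653, at 48.4 kb, a log2 change of 1.64 with p = 0.0362 and q = 0.827. The ECE1 transcript was higher in T there, at p = 0.707 in the authors' deposited table.

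RNPEPL1 encodes a relative of aminopeptidase B. Its lncRNA TCONS_00332711, at 86.8 kb, was above 0 in T and at 0 in C, and the authors' deposited table gave p = 0.0125 and q = 0.551. The RNPEPL1 transcript was lower in T, at p = 0.0529 in the authors' deposited table. Neither target transcript passed adjustment (adjusted p = 1 for each, Benjamini-Hochberg over 816 target transcripts). A gene can be a target only where a differential lncRNA lies near it, so these counts say nothing of how strongly the listed genes are expressed.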

How the data were processed

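Endometrium of goats at 2 stages was profiled in 4 libraries. The submitters' processing notes name Cuffdiff, Cufflinks, TopHat and TopHat2, without versions or roles, and a genome build was not found in the sources used here. Per the file headers, the deposited log2 fold change is that of set T over set C, and the deposited p-value and q-value are those of the same comparison. An infinite log2 change was read here as a value of 0 in C where positive and in T where negative. The CPC and CNCI score of each lncRNA are the authors' values, per the file headers. The enrichment p-value of each term was deposited by the authors.

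The columns named for single libraries (4) and those of set values (2) match no sample label. They were seen in a first look at the tables, where the set values were compared with the log2 changes, and entered no result. The limma fit planned on values per library was therefore not run. A differential lncRNA is one in the authors' deposited differential table. Gaps run between the nearest ends of the deposited positions. These are locus positions, so gaps and spans may not be those of the single transcripts. The members and lists were chosen with earlier results of these data known. Named lncRNAs are the differential ones within 100 kb, those paired with either gene, the nearest on each side, and those of list members among the targets. The lncRNAs at shared positions, at the limit of the window and within 200 kb, and the genes with 3 or more differential lncRNAs, were named after their values were seen. Target p-values and term p-values were adjusted by Benjamini-Hochberg over each whole table. The adjustment and the gaps were tested on simulated data. Sequences were not used here. The software was matplotlib 3.10.9, scipy 1.17.1, pandas 2.3.3 and numpy 2.4.6 under Python 3.11.15.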

Additional observations from a re-analysis of the deposited data

How the results depend on the processing

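Of 26 values recomputed under other settings, 19 stayed within the limits set, 7 moved and 0 changed direction. With a window of 50 kb, the lncRNAs near MME numbered 12 and the differential ones 2. With a window of 200 kb, 55 lncRNAs lay near MME and 28 near ANPEP. With a q under 0.05 as the criterion, 2 differential lncRNAs were left at MME and 0 at ANPEP, although all 3 there have a p under 0.05. With a finite log2 change required, 0 of the 4 higher lncRNAs at MME were left, since the change of each is infinite. Each of these follows from the narrower or wider selection itself. For ANPEP the adjusted p of the transcript was 0.00191 when only the 267 target transcripts with a p under 1 were adjusted (Benjamini-Hochberg), and for MME the smallest was 0.522. No paired analysis was possible because the columns used carry no replicate number and no value per library. Leaving out each library, the pseudocount, the filter on low values and the replicate block were not run for the same reason. The columns used hold no counts, so the precision of the changes is unknown.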
